A study of Mus musculus with 48 samples.

Results

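The mRNA levels of 6 genes that attach ubiquitin to proteins in striated muscle, or remove it, were measured in mouse hearts. The genes are the ubiquitin ligases Trim63, Trim55, Trim54, Fbxo32 and Fbxo30 and the deubiquitinase Uchl1, taken by gene symbol from 31920 genes in the ventricle tables and 31741 in the cell fraction table. The ligases, of the Trim and F-box kinds, are known from muscle. Uchl1 was treated as chosen by its reads, which were higher in mutant than in wild type hearts given vehicle. That contrast is therefore described for Uchl1 without a test.

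The hearts came from FVB mice that carried PLNR9C, an arginine-to-cysteine form of phospholamban known from inherited dilated cardiomyopathy, or were wild type. Mice of both genotypes received JQ1, an inhibitor of BET bromodomain proteins, at 50 mg/kg or its vehicle. Each sample type therefore held 4 groups of 3 libraries, which were PLNR9C with JQ1, PLNR9C with vehicle, wild type with JQ1 and wild type with vehicle. The sample types were whole left ventricle at 8 weeks, labelled as preceding cardiomyopathy, whole left ventricle at 20 weeks, labelled as cardiomyopathy, and pooled cardiomyocytes and pooled non-myocytes at 16 weeks, which gave 16 groups and 48 libraries. How many animals entered a pool, what drives the PLNR9C allele and how long JQ1 was given were found in none of the sources used here.

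Ubiquitin is joined to proteins by a chain of activating, conjugating and ligating enzymes, and the ligase chooses the protein. Chains of ubiquitin send the protein to the proteasome, and deubiquitinases take the chains off. In muscle, Fbxo32 (atrogin-1) and Trim63 (MuRF1) are known as the ligases that climb during wasting, and FoxO transcription factors are known to switch both on. Trim55 (MuRF2) and Trim54 (MuRF3) are close relatives of Trim63 that sit on the sarcomere and on microtubules. Fbxo30 (MUSA1) is another F-box ligase of muscle wasting. Uchl1 (PGP9.5) is a ubiquitin hydrolase known mainly from neurons.

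In the deposited coordinates on GRCm38, Uchl1 lies on the plus strand of chromosome 5 from 66676121 to 66687234 and Trim54 on the plus strand of chromosome 5 from 31116612 to 31137626. Trim63 lies on the plus strand of chromosome 4 from 134315120 to 134329629, and Trim55 on the plus strand of chromosome 3 from 19644460 to 19691599. Fbxo32 lies on the minus strand of chromosome 15 from 58175879 to 58214892, and Fbxo30 on the plus strand of chromosome 10 from 11281330 to 11297969. Values are for the whole gene, all exons together. Uchl1 overlaps 1 other row of the tables, the antisense transcript AK078321, and the other 5 genes overlap none. AK078321 had 1 to 67 reads a library, which is 1.3% to 21.1% of the Uchl1 reads. No source used here says whether counting used strand, so reads of the pair cannot be told apart.

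Total reads in genes per library ran from 16984138 to 27086694 for the 8-week ventricle and from 18415351 to 26730918 for the 20-week ventricle. They ran from 10249780 to 13146653 for the cardiomyocyte pools and from 10041094 to 11815003 for the non-myocyte pools. Hexim1, a gene known to answer BET inhibitors, rose with JQ1 in both genotypes of every sample type, by 1.33 ± 0.14 to 2.58 ± 0.07 on the log2 scale. Pln, the gene of the mutated protein, gives no check of genotype here because mutant and normal reads are counted together. Levels are given in CPM, the reads of a gene scaled by the library total after that total was multiplied by a TMM scaling factor. The 10 cardiomyocyte markers were read in every group. They summed to 48080 to 99880 CPM in the cardiomyocyte libraries, against 1343 to 10430 CPM in the non-myocyte libraries. The 8 fibroblast markers summed to 430.5 to 5494 CPM in cardiomyocyte libraries and to 19590 to 36980 CPM in non-myocyte libraries. The fraction labels therefore fit their markers, with some of the other fraction's RNA in each. Markers of skeletal muscle, a possible stray tissue for these ligases, summed to at most 9.091 CPM in any library.

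Below, CPM values were scaled within each sample type, and log2 fold changes carry their standard error. A gene passed at an adjusted p under 0.05 by edgeR's quasi-likelihood test with Benjamini-Hochberg adjustment over all genes tested. In whole ventricle, fewer cells of a type and less RNA per cell cannot be told apart. Statements that groups of libraries did or did not overlap are descriptions, and the share of all genes without overlap is not given. All 6 genes passed the filter on low counts in each of the 4 sample types.

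Per unit of gene length, on the authors' RPKM scale, Trim54 and Trim63 were the most abundant of the 6 genes in ventricle and in cardiomyocytes. In wild type vehicle ventricle at 8 weeks the mean RPKM was 121 for Trim54, 65.9 for Trim63, 38.6 for Fbxo32, 34.3 for Trim55, 7.6 for Fbxo30 and 2.2 for Uchl1. At 20 weeks in PLNR9C vehicle ventricle the order changed at its lower end, with Uchl1 at 23.7 RPKM above Fbxo30 at 12.3 RPKM. In cardiomyocytes of PLNR9C mice given JQ1, Uchl1 at 22.1 RPKM stood above Fbxo32 at 20.8 RPKM and Trim55 at 17.7 RPKM. In non-myocytes of PLNR9C mice, Uchl1 had the highest RPKM of the 6 genes with JQ1 (16.9) and with vehicle (9.21), and likewise in wild type non-myocytes with JQ1 (16.7).

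Uchl1 was the gene of the 6 that differed most between genotypes, which was taken to be why it was chosen. At 8 weeks its level was 8.61, 9.62 and 9.43 CPM in PLNR9C ventricles with JQ1 and 7.42, 9.53 and 7.30 CPM in PLNR9C ventricles with vehicle. It was 2.87, 4.23 and 4.22 CPM in wild type ventricles with JQ1 and 2.70, 2.60 and 2.74 CPM in wild type ventricles with vehicle. Every PLNR9C library lay above every wild type library. With vehicle the log2 fold change of PLNR9C over wild type was 1.59 ± 0.17, a 3.02-fold difference.

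At 20 weeks Uchl1 stood at 18.2, 24.04 and 19.2 CPM in PLNR9C ventricles with JQ1 and at 28.4, 26.6 and 20.6 CPM in PLNR9C ventricles with vehicle. It stood at 5.01, 4.71 and 5.27 CPM in wild type ventricles with JQ1 and at 2.68, 2.09 and 3.498 CPM in wild type ventricles with vehicle. The genotypes again did not overlap, and the gap with vehicle was wider, at 3.20 ± 0.18 on the log2 scale or 9.20-fold. In 1 fit over both ages, the genotype effect with vehicle at 20 weeks exceeded that at 8 weeks by 1.62 ± 0.25. The ages were deposited as separate tables, so age and table cannot be told apart, but genotype was compared within each.

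**Figure D1:**
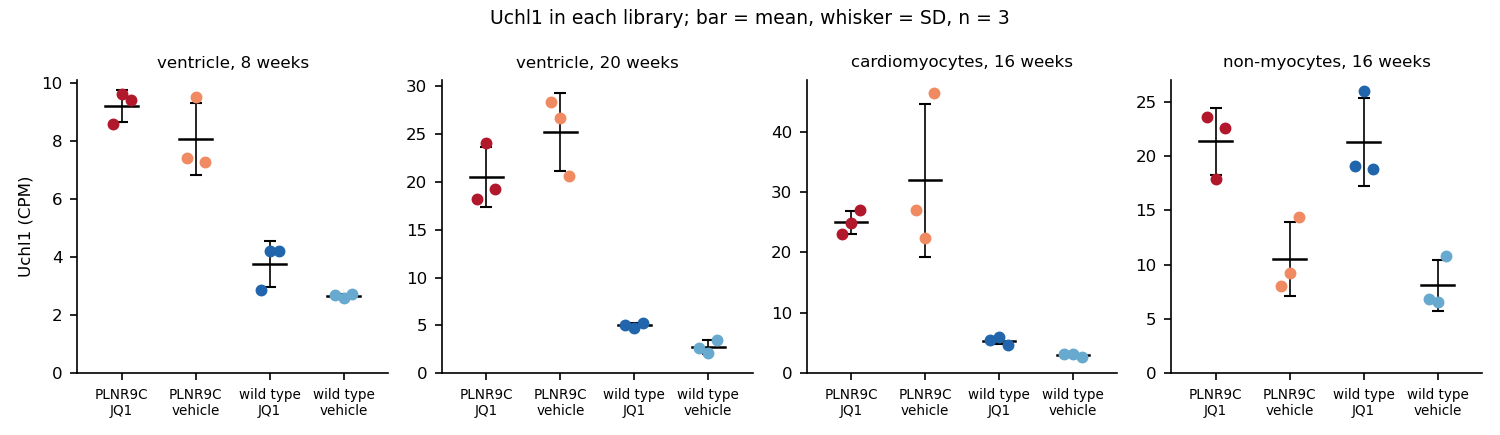
Uchl1 level in CPM (vertical axes, each with its own scale) in every library of the 4 sample types, by genotype and treatment; points are libraries, bars are means and whiskers are SDs of 3 libraries. PLNR9C libraries stand above wild type libraries in both ventricle sets and in cardiomyocytes, whereas in non-myocytes the JQ1 libraries, at 17.8 to 26.0 CPM, stand above the vehicle libraries, at 6.60 to 14.4 CPM.

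In the isolated cells the genotype difference of Uchl1 lay in the cardiomyocyte fraction. Cardiomyocytes had 26.99, 22.4 and 46.4 CPM in PLNR9C mice with vehicle, against 3.19, 3.27 and 2.65 CPM in wild type mice with vehicle. The log2 fold change was 3.38 ± 0.26, and without PLNR9C vehicle replicate 3, the library at 46.4 CPM, it was 3.02. Non-myocytes had 8.02, 9.19 and 14.4 CPM in PLNR9C mice with vehicle, against 6.83, 6.60 and 10.8 CPM in wild type mice with vehicle. These groups overlapped, and the log2 fold change was 0.38 ± 0.25. The genotype effect in cardiomyocytes exceeded that in non-myocytes by 2.96 ± 0.38 on the log2 scale, given as a description because it rests on the same libraries.

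If the vehicle libraries chose Uchl1, as was assumed here, the JQ1-treated libraries played no part in the choice. No source used here says which libraries led to it. The tests below may therefore not be independent of the choice. With JQ1 in both genotypes, Uchl1 was higher in PLNR9C by 1.28 ± 0.16 at 8 weeks (adjusted p = 7.5e-05), 2.04 ± 0.16 at 20 weeks (adjusted p = 3.7e-08) and 2.21 ± 0.24 in cardiomyocytes (adjusted p = 0.00011). In non-myocytes the difference was 0.01 ± 0.23 (adjusted p = 0.99), an interval of -0.45 to 0.47 at 2 standard errors each side. Among the 6 genes Uchl1 alone passed as higher in this comparison in the first 3 sample types, where 3.43%, 20.8% and 13.6% of all genes passed as higher.

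Between JQ1 and vehicle, the gap in Uchl1 was widest in non-myocytes. In PLNR9C non-myocytes it stood at 23.6, 17.8 and 22.6 CPM with JQ1, against the 8.02 to 14.4 CPM with vehicle given above (log2 fold change 1.02 ± 0.24). In wild type non-myocytes it stood at 19.1, 26.0 and 18.8 CPM with JQ1, against 6.60 to 10.8 CPM with vehicle (log2 fold change 1.39 ± 0.24). No JQ1 library of either genotype fell within the range of its vehicle libraries. In wild type ventricle the log2 fold change of JQ1 over vehicle was 0.50 ± 0.18 at 8 weeks and 0.87 ± 0.19 at 20 weeks, and the groups did not overlap at either age. Wild type cardiomyocytes had 4.744 to 5.945 CPM with JQ1, against 2.65 to 3.27 CPM with vehicle, also without overlap. These contrasts rest on the vehicle libraries taken to have chosen Uchl1, with its low reads in wild type as part of the choice. They are given without a test.

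In PLNR9C, also without a test, the log2 fold change of Uchl1 with JQ1 was 0.19 ± 0.15 for the 8-week ventricle, -0.30 ± 0.14 for the 20-week ventricle and -0.35 ± 0.21 in cardiomyocytes. In cardiomyocytes it was 0.02 without PLNR9C vehicle replicate 3, so the sign rests on that library. The JQ1 effects of the genotypes, PLNR9C minus wild type, differed by -0.31 ± 0.23 at 8 weeks and -1.17 ± 0.24 at 20 weeks. They differed by -1.17 ± 0.35 in cardiomyocytes and by -0.37 ± 0.34 in non-myocytes. These values include the vehicle libraries taken as used for the choice and carry no test.

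Over the 16 groups the mean level of Uchl1 spanned 11.9-fold, with each sample type scaled on its own. The top 6 groups, from 20.5 to 31.9 CPM, were PLNR9C ventricle at 20 weeks and PLNR9C cardiomyocytes with either treatment and non-myocytes of both genotypes with JQ1. The lowest 3, from 2.68 to 3.04 CPM, were the wild type vehicle groups of ventricle and cardiomyocytes. Of 15 neighbouring pairs in this order, 12 overlapped.

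Because Uchl1 is a nerve gene, 12 neuron markers were followed beside it. Their summed level at 20 weeks was 12.1 to 13.14 CPM in PLNR9C vehicle ventricle and 11.001 to 12.34 CPM in wild type vehicle ventricle. In cardiomyocytes it was 9.675 to 14.7 CPM in PLNR9C vehicle libraries and 6.53 to 9.466 CPM in wild type vehicle libraries. Snap25 and Syt1 had no read in the PLNR9C vehicle cardiomyocytes. Syt1 had none in the wild type vehicle cardiomyocytes either, and Snap25 averaged 0.029 CPM there, so neither marker compares the genotypes. Of further markers in these groups, Nefl, Nefm and Elavl4 had higher means in PLNR9C, at most 0.4993 CPM. Dbh, Prph, Gap43 and, slightly, Th had lower means in PLNR9C. The part of nerve RNA in the Uchl1 difference was not tested. Stmn2, the neuron marker with most reads in ventricle, stood at 2.16 ± 0.19 CPM in PLNR9C vehicle cardiomyocytes and 3.14 ± 1.33 CPM in wild type vehicle cardiomyocytes (SD, n = 3 each). Tubb3, a tubulin of neurons, moved with Uchl1, at 1.70 to 9.74 CPM in PLNR9C vehicle cardiomyocytes with 0 reads in the wild type vehicle ones. Markers of fibroblasts also differed there, at 1421 to 1931 CPM in PLNR9C vehicle cardiomyocytes and 430.5 to 550 CPM in wild type vehicle cardiomyocytes, and their part in the Uchl1 difference was not tested. Uchl3, a related ubiquitin hydrolase, had a genotype effect of 0.05 ± 0.11 at 20 weeks (adjusted p = 0.76).

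Trim63, which encodes the ligase MuRF1, was the member that JQ1 raised in ventricle of both genotypes and at both ages. The 250 bases before its start site on GRCm38.p6, chr4:134314870-134315119 on the plus strand, are shown from RefSeq beside those before Trim54, chr5:31116362-31116611 on the plus strand, because these close relatives moved differently with JQ1. Capitals mark the FoxO core motif TGTTTAC and the TATA motif TATAAA, searched on both strands.
Trim63: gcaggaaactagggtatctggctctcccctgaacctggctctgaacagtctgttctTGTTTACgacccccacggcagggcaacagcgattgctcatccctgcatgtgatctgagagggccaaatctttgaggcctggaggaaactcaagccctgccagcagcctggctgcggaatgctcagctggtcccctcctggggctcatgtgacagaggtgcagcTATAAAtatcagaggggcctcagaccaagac
Trim54: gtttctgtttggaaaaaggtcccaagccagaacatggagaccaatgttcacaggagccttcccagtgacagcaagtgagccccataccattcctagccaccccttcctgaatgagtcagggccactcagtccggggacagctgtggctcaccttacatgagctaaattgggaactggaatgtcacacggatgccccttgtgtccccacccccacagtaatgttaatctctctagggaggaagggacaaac
The Trim63 window held 1 FoxO core, 194 to 188 bases before the start, and 1 TATA motif, 31 to 26 bases before it, and the Trim54 window held neither. Of 32851 such windows, 3.17% held the FoxO core and 12.4% the TATA motif. The E-box CANNTG, which 66.2% of windows held, occurred 3 times before Trim63 and 2 times before Trim54, and the MEF2 and CArG motifs, held by 2.92% and 1.47% of windows, occurred before neither. No 2 of the matches overlapped. A window was found for 4 of the 6 genes, and those of Uchl1 and Fbxo30 held none of the 5 motifs. Windows end at RefSeq's start sites. That of Fbxo30 lies inside the gene as deposited, and those of Uchl1 and Fbxo30 hold exon sequence of their own gene.

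At 8 weeks Trim63 stood at 322, 262 and 258 CPM in PLNR9C ventricles with JQ1, against 180, 143 and 184 CPM in PLNR9C ventricles with vehicle. In wild type ventricles it stood at 324, 290 and 309 CPM with JQ1, against 194, 207 and 190 CPM with vehicle. JQ1 and vehicle libraries did not overlap in either genotype. The rise was 0.73 ± 0.10 in PLNR9C (adjusted p = 4.8e-05) and 0.64 ± 0.10 in wild type (adjusted p = 0.00016).

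At 20 weeks Trim63 stood at 270, 194 and 228 CPM in PLNR9C ventricles with JQ1, against 125, 123 and 118 CPM in PLNR9C ventricles with vehicle, a rise of 0.92 ± 0.17 (adjusted p = 0.0019). In wild type ventricles it stood at 220, 344 and 336 CPM with JQ1, against 226, 191 and 177 CPM with vehicle (0.60 ± 0.17, adjusted p = 0.022). The wild type groups overlapped. That call was lost without wild type JQ1 replicate 2 or 3, without wild type vehicle replicate 2 or 3 and without a filter on low counts, with adjusted p between 0.062 and 0.077.

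Trim63 was lower in PLNR9C than in wild type at 20 weeks. With vehicle, the 118 to 125 CPM of PLNR9C ventricles lay below the 177 to 226 CPM of wild type ventricles (-0.70 ± 0.17, adjusted p = 0.0057). At 8 weeks the difference was -0.22 ± 0.10 (adjusted p = 0.16), and the groups did not overlap. The genotype effect at 20 weeks minus that at 8 weeks was -0.47 ± 0.21 (adjusted p = 0.16). With JQ1 in both genotypes the difference was -0.38 ± 0.17 at 20 weeks (adjusted p = 0.097, or 0.033 with DESeq2, and 0.0011 without wild type JQ1 replicate 1) and -0.13 ± 0.10 at 8 weeks (adjusted p = 0.51). Cardiomyocyte markers moved alongside, summing at 20 weeks to 51100 to 56290 CPM in PLNR9C with JQ1, 37450 to 43710 CPM in PLNR9C with vehicle, 89430 to 98370 CPM in wild type with JQ1 and 73240 to 83230 CPM in wild type with vehicle. Their part in the Trim63 differences was not tested.

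**Figure D2:**
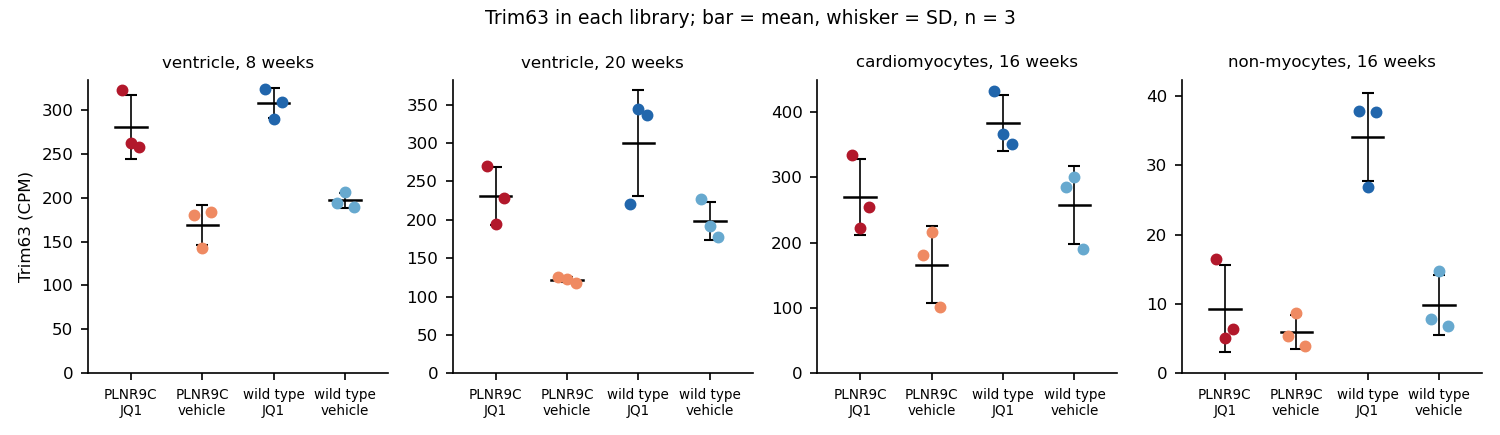
Trim63 level in CPM (vertical axes, each with its own scale) in every library of the 4 sample types, by genotype and treatment; points are libraries, bars are means and whiskers are SDs of 3 libraries. JQ1 libraries stand above vehicle libraries of the same genotype in the 8-week ventricle, and PLNR9C vehicle libraries at 20 weeks sit at 118 to 125 CPM.

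In cardiomyocytes Trim63 stood at 334, 222 and 254 CPM in PLNR9C with JQ1, against 182, 217 and 101 CPM in PLNR9C with vehicle. It stood at 432, 366 and 350 CPM in wild type with JQ1, against 285, 300 and 190 CPM in wild type with vehicle. JQ1 and vehicle libraries did not overlap in either genotype, yet neither difference passed over all genes. The log2 fold change was 0.70 ± 0.26 in PLNR9C (adjusted p = 0.11, or 0.049 with DESeq2) and 0.57 ± 0.26 in wild type (adjusted p = 0.26). The difference of the JQ1 effects, PLNR9C minus wild type, did not pass for Trim63 in any sample type, with values from -1.14 ± 0.65 in non-myocytes to 0.32 ± 0.24 in the 20-week ventricle.

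Trim55, which encodes MuRF2, was lower in the PLNR9C ventricle at 20 weeks with either treatment on TMM-scaled CPM. It stood at 39.7, 41.8 and 40.7 CPM in PLNR9C with vehicle, against 60.0, 59.2 and 55.9 CPM in wild type with vehicle. The log2 fold change was -0.52 ± 0.07 (adjusted p = 8.2e-06). It stood at 38.9, 41.8 and 42.3 CPM in PLNR9C with JQ1, against 51.4, 51.0 and 53.0 CPM in wild type with JQ1 (-0.34 ± 0.07, adjusted p = 0.00079). Neither pair of groups overlapped on this scale. The gap with JQ1 depended on the TMM factors. Without them Trim55 averaged 44.06 ± 2.095 CPM in PLNR9C and 45.43 ± 1.119 CPM in wild type, both with JQ1 (SD, n = 3 each). With vehicle those means were 45.91 ± 0.3683 CPM in PLNR9C and 54.96 ± 1.571 CPM in wild type. The cardiomyocyte marker sums given for these groups under Trim63 were lower in PLNR9C too, with 9 of the 10 markers passing as lower with either treatment, and their part was not tested. In isolated cardiomyocytes Trim55 averaged 40.7 ± 4.94 CPM in PLNR9C with vehicle and 44.7 ± 0.735 CPM in wild type with vehicle (SD, n = 3 each), groups that overlapped (-0.13 ± 0.16, edgeR adjusted p = 0.57). At 8 weeks the genotype effect with vehicle was -0.10 ± 0.08 (adjusted p = 0.44), and the difference between ages passed (-0.41 ± 0.10, adjusted p = 0.0043).

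JQ1 lowered Trim55 at 8 weeks. In PLNR9C ventricles it stood at 52.5, 47.9 and 45.6 CPM with JQ1, against 58.1, 60.7 and 55.4 CPM with vehicle (-0.25 ± 0.08, adjusted p = 0.015). This call was lost without PLNR9C JQ1 replicate 3 (adjusted p = 0.075) or PLNR9C vehicle replicate 2 (adjusted p = 0.059). In wild type ventricles it stood at 51.6, 45.5 and 41.8 CPM with JQ1, against 60.8, 63.4 and 62.5 CPM with vehicle (-0.43 ± 0.08, adjusted p = 0.00030). JQ1 and vehicle libraries did not overlap in either genotype. At 20 weeks the JQ1 effect was 0.01 ± 0.07 in PLNR9C (adjusted p = 0.93) and -0.17 ± 0.07 in wild type (adjusted p = 0.075).

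Trim54, which encodes MuRF3, moved less in ventricle. At 8 weeks it stood at 150, 136 and 172 CPM in wild type with JQ1, against 196, 197 and 173 CPM in wild type with vehicle. The difference passed narrowly (-0.30 ± 0.11, adjusted p = 0.046). It was lost without a filter on low counts (adjusted p = 0.085) and without any 1 of 4 of the 6 libraries, with adjusted p from 0.12 to 0.16. In PLNR9C the change with JQ1 was -0.20 ± 0.11 at 8 weeks (adjusted p = 0.17). At 20 weeks Trim54 stood at 160, 177 and 181 CPM in PLNR9C with vehicle, against 240, 178 and 208 CPM in wild type with vehicle. The log2 fold change was -0.27 ± 0.11 (adjusted p = 0.054), and it passed without wild type vehicle replicate 2 (-0.37, adjusted p = 0.0094). Without the TMM factors the means of these groups were 194.5 ± 8.851 CPM in PLNR9C and 196.4 ± 26.91 CPM in wild type (SD, n = 3 each).

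Fbxo32, which encodes atrogin-1, differed between genotypes in no sample type past the threshold. At 20 weeks it stood at 270, 338 and 230 CPM in PLNR9C with vehicle, against 318, 265 and 248 CPM in wild type with vehicle. The groups overlapped, and the log2 fold change was 0.01 ± 0.17 (adjusted p = 0.96), with an interval of -0.33 to 0.35 at 2 standard errors each side. The ventricle at 8 weeks gave 0.02 ± 0.13 (adjusted p = 0.94), with an interval of -0.24 to 0.28. Cardiomyocytes gave -0.57 ± 0.41 (adjusted p = 0.33), where PLNR9C vehicle libraries spread from 82.3 to 272 CPM and replicate 3 was lowest.

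Fbxo32 rose with JQ1 at 8 weeks in wild type, where it stood at 322, 341 and 427 CPM with JQ1, against 256, 297 and 260 CPM with vehicle (0.42 ± 0.13, adjusted p = 0.030). The libraries did not overlap. The call was lost without a filter on low counts (adjusted p = 0.074) and without wild type JQ1 replicate 3 or wild type vehicle replicate 1 or 3 (adjusted p up to 0.094). In PLNR9C it stood at 423, 337 and 299 CPM with JQ1, against 278, 267 and 282 CPM with vehicle (0.36 ± 0.13, adjusted p = 0.053, or 0.0089 with DESeq2). At 20 weeks the change with JQ1 was 0.04 ± 0.17 in PLNR9C (adjusted p = 0.88) and 0.09 ± 0.17 in wild type (adjusted p = 0.75).

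Fbxo30, which encodes MUSA1, had the flattest profile of the 6 genes on CPM scaled within each sample type. Its group means spanned 1.45-fold over the 16 groups, with no neighbouring pair in their order free of overlap. Levels of different sample types are not on a common scale there. A joint fit of both fractions, given below, put Fbxo30 higher in wild type vehicle cardiomyocytes than in non-myocytes, by a difference that depended on the scaling. The highest mean, 56.0 CPM, was in the PLNR9C ventricle at 20 weeks with vehicle, next to 54.7 CPM (43.8 to 72.8) in PLNR9C vehicle cardiomyocytes, where the genotype effect did not pass (0.32 ± 0.18, adjusted p = 0.20). In that ventricle group Fbxo30 stood at 50.0, 56.4 and 61.6 CPM, against 39.3, 35.9 and 42.2 CPM in wild type with vehicle (0.52 ± 0.12, adjusted p = 0.0020). In PLNR9C with JQ1 it stood at 38.9, 38.2 and 47.2 CPM, against those 50.0 to 61.6 CPM with vehicle (-0.43 ± 0.12, adjusted p = 0.010). Both differences kept all libraries apart. The fall with JQ1 was lost without PLNR9C JQ1 replicate 2 (-0.38, adjusted p = 0.051).

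At 8 weeks all 12 libraries of Fbxo30 lay between 35.1 and 47.5 CPM, and the genotype effect with vehicle was 0.02 ± 0.09 (adjusted p = 0.93). The genotype effect at 20 weeks minus that at 8 weeks was 0.51 ± 0.16 (adjusted p = 0.027), a call lost without any 1 of 8 of the 12 libraries (adjusted p up to 0.079). Wild type libraries at 20 weeks showed no passing change with JQ1 (0.01 ± 0.12, adjusted p = 0.95). The difference of the JQ1 effects, PLNR9C minus wild type, was -0.45 ± 0.17 (adjusted p = 0.34).

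**Figure D3:**
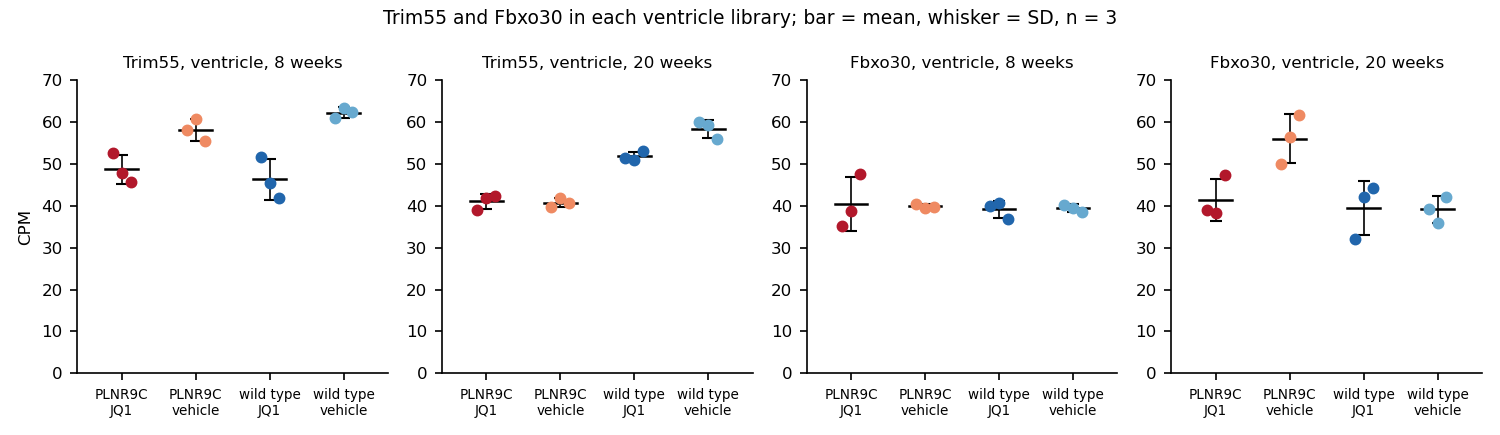
Trim55 (left pair) and Fbxo30 (right pair) level in CPM in every ventricle library at 8 and 20 weeks, by genotype and treatment; points are libraries, bars are means and whiskers are SDs of 3 libraries. On this TMM-scaled CPM, Trim55 at 20 weeks is lower in both PLNR9C groups, at 38.9 to 42.3 CPM. Fbxo30 at 20 weeks is highest in PLNR9C with vehicle, at 50.0 to 61.6 CPM.

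Counted together, members passed at rates that need the background beside them. For PLNR9C over wild type with vehicle, 0, 3, 0 and 0 of the 5 ligases passed in the 8-week ventricle, the 20-week ventricle, cardiomyocytes and non-myocytes, where 14.4%, 44.7%, 26.1% and 18.6% of all genes passed. For JQ1 in PLNR9C, 2, 2, 0 and 0 of the 5 ligases passed, where 33.1%, 31.9%, 10.5% and 36.2% of all genes did. For JQ1 in wild type, 4, 1, 0 and 2 of the 5 passed, where 29.8%, 27.2%, 3.63% and 38.0% of all genes did. For PLNR9C over wild type with JQ1, 1, 2, 1 and 2 of the 6 genes passed, where 5.96%, 39.1%, 25.9% and 18.6% of all genes did. The genotype effect differed between ages for 2 of the 5 ligases, Trim55 and Fbxo30, where 15.5% of all genes passed. The difference of the JQ1 effects, PLNR9C minus wild type, passed for 0 of the 5 ligases in each sample type, where 0.00645%, 0.357%, 0.0% and 0.0% of all genes passed. The JQ1 effect in PLNR9C differed between ages for 0 of the 5 ligases, where 0.271% of all genes passed. The genotype effect differed between cardiomyocytes and non-myocytes for 0 of the 5 ligases, where 8.33% of all genes passed. Within a sample type, the highest share was 4 of 5, for JQ1 in wild type at 8 weeks.

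**Figure D4:**
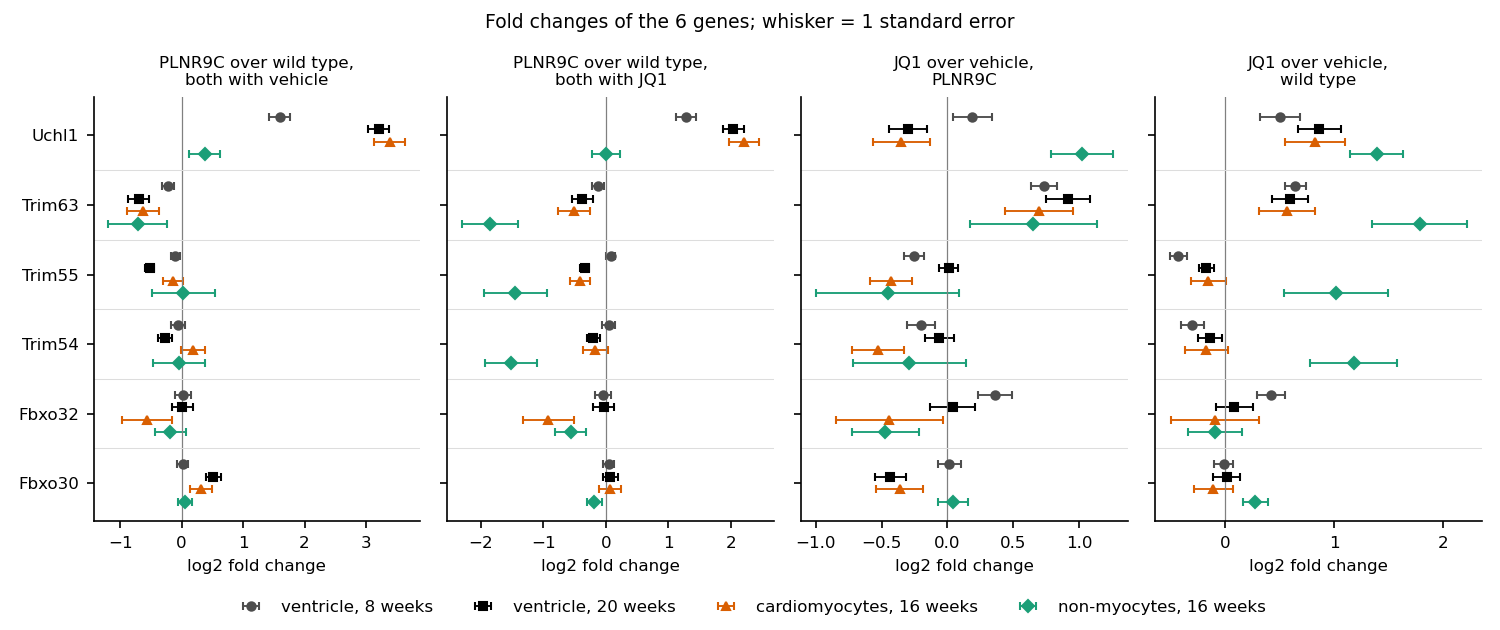
Log2 fold changes (horizontal axes, each with its own scale) of the 6 genes in the 4 comparisons, with 1 marker for each sample type; whiskers are 1 standard error. Uchl1 shows the widest genotype differences, Trim63 lies right of 0 in both JQ1 comparisons, and Fbxo32 and Fbxo30 stay near 0 in the 8-week genotype comparisons.

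Between fractions, the 5 ligases were higher in wild type vehicle cardiomyocytes than in wild type vehicle non-myocytes in a fit over both fractions, in which 79.5% of all genes passed. The log2 difference was 5.67 ± 0.33 for Trim55 (adjusted p = 1.4e-12), 5.54 ± 0.43 for Trim63 (adjusted p = 2.6e-10), 5.32 ± 0.38 for Trim54 (adjusted p = 6.3e-11), 3.24 ± 0.39 for Fbxo32 (adjusted p = 1.7e-07) and 1.02 ± 0.16 for Fbxo30 (adjusted p = 5.0e-06). Uchl1 was at -0.57 ± 0.30, without a test because these are vehicle libraries taken to have chosen it. These values depend on how the very different fractions are scaled. With unscaled library sizes, chosen after seeing the data, the median of all genes shifted by -0.97, the 3 Trim genes stayed between 4.35 and 4.70 and Fbxo32 at 2.27, while Fbxo30 no longer passed (0.05, adjusted p = 0.74) and Uchl1 was at -1.54.

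In non-myocytes the Trim genes kept the proportion to cardiomyocyte markers that they had in cardiomyocytes. Trim63 had a median of 2.59 reads per 1000 reads of the 10 cardiomyocyte markers in wild type vehicle non-myocytes, and 3.36 in wild type vehicle cardiomyocytes. Over the 4 conditions, the median ratio in non-myocytes divided by that in cardiomyocytes was 0.771 to 0.948 for Trim63, 0.896 to 1.04 for Trim55 and 0.924 to 1.21 for Trim54. It was 2.25 to 8.40 for Fbxo32, 11.7 to 43.4 for Fbxo30 and 9.23 to 59.6 for Uchl1. Per marker read, the Trim genes had like medians in both fractions, and the other 3 genes had higher medians in non-myocytes. The source of these reads was not tested. The markers were Myh6, Myl2, Myl3, Tnni3, Tnnt2, Actc1, Ryr2, Actn2, Mb and Pln. In cardiomyocytes with vehicle, 4 of the 10 themselves passed as lower in PLNR9C than in wild type.

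**Figure D5:**
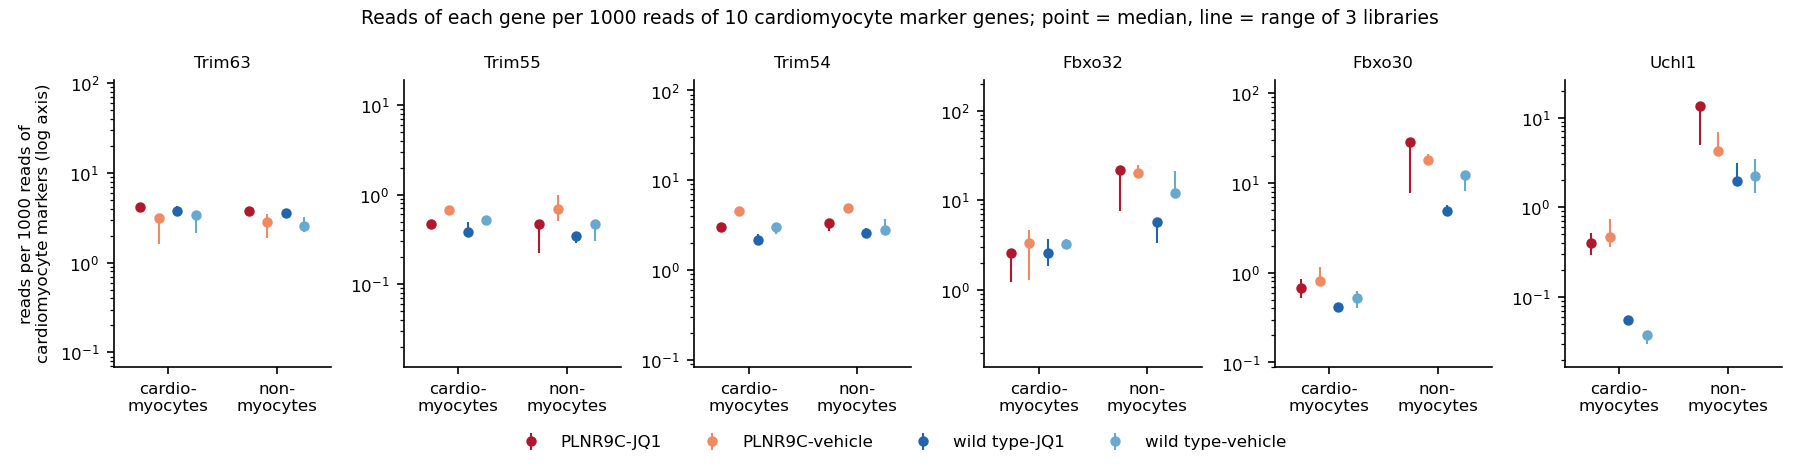
Reads of each gene per 1000 reads of 10 cardiomyocyte markers (vertical log axes of equal span) in cardiomyocytes and non-myocytes of the 4 conditions; points are medians and lines the range of 3 libraries. The 3 Trim genes sit at like values in both fractions, and Fbxo32, Fbxo30 and Uchl1 sit higher in non-myocytes.

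The changes of the Trim genes in non-myocytes stand beside that measurement. Trim63 had 37.9, 26.8 and 37.6 CPM in wild type non-myocytes with JQ1, against 7.89, 14.8 and 6.86 CPM with vehicle (1.79 ± 0.44, adjusted p = 0.0086). Cardiomyocyte markers in the same libraries summed to 8338 to 10430 CPM with JQ1 and to 3049 to 4603 CPM with vehicle, and 9 of the 10 passed as higher. Trim54 rose there by 1.18 ± 0.40 (adjusted p = 0.039), a call lost without any 1 of the 6 libraries. With JQ1 in both genotypes, Trim63 and Trim54 were lower in PLNR9C non-myocytes (-1.85 ± 0.44, adjusted p = 0.015, and -1.51 ± 0.41, adjusted p = 0.028). The Trim63 call was lost without PLNR9C JQ1 replicate 2 or 3 (adjusted p 0.051 and 0.060), and the Trim54 call without those or any wild type JQ1 library (adjusted p from 0.053 to 0.095). Cardiomyocyte markers in PLNR9C non-myocytes with JQ1 summed to 1343 to 4756 CPM, the highest being replicate 1. Without that library Trim54 passed as lower with JQ1 in PLNR9C (-1.21, adjusted p = 0.0022), against -0.29 ± 0.43 with it.

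Around these genes, 189 further genes of the ubiquitin, proteasome, FoxO and autophagy pathways and of MuRF partners were followed in 8 lists, of which 186 were in the tables. The lists were chosen with earlier results of these data known. Of 33 other muscle and heart ubiquitin ligases, 14 fell and 1 rose in PLNR9C over wild type with vehicle at 20 weeks, where 21.4% of all genes fell and 23.3% rose. The list's median was -0.19, against 0.01 for all genes. Fbxo31, a ligase of the cell cycle, fell by 1.35 ± 0.09 (adjusted p = 2.3e-09), and Asb2, a ligase that targets filamins, fell by 1.00 ± 0.12 (adjusted p = 3.2e-06). Ubr2, a ligase of the N-end rule, fell by 0.70 ± 0.09 (adjusted p = 7.9e-06). At 8 weeks 7 fell and none rose by this test, and in cardiomyocytes 9 fell and none rose, where 6.5% and 11.8% of all genes fell. Fbxo40, a muscle ligase of insulin signalling, fell with JQ1 in PLNR9C ventricle, by 0.59 ± 0.07 at 8 weeks (adjusted p = 2.1e-06) and 0.68 ± 0.14 at 20 weeks (adjusted p = 0.0031). In non-myocytes 2 of the 33 rose in PLNR9C over wild type with vehicle, Wwp1 (0.63 ± 0.11, adjusted p = 0.0013) and Cbl (0.40 ± 0.11, adjusted p = 0.024), and none fell, where 10.3% of all genes rose.

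Of 28 FoxO and atrophy regulators tested in cardiomyocytes, 13 fell and 1 rose in PLNR9C over wild type with vehicle, at a median of -0.47, where 11.8% of all genes fell. Foxo3, a FoxO factor known to activate Fbxo32, stood at 22.4 ± 2.79 CPM in PLNR9C vehicle cardiomyocytes and 70.3 ± 27.9 CPM in wild type vehicle cardiomyocytes (-1.65 ± 0.26, adjusted p = 0.00086). Foxo1 stood at 39.2 ± 6.92 CPM and 75.3 ± 11.9 CPM in those groups (-0.94 ± 0.15, adjusted p = 0.00060). With JQ1 in PLNR9C, Foxo1 rose by 0.82 ± 0.14 (adjusted p = 0.0014) in the 8-week and 0.48 ± 0.10 (adjusted p = 0.0018) in the 20-week ventricle, 1.12 ± 0.15 in cardiomyocytes (adjusted p = 0.0020) and 0.66 ± 0.10 in non-myocytes (adjusted p = 0.00015). Klf15, a glucocorticoid-induced factor known to drive Fbxo32 and Trim63, fell by 1.15 ± 0.21 in the PLNR9C vehicle ventricle at 20 weeks (adjusted p = 0.0013).

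Among 30 other deubiquitinases, 6 rose and 4 fell in PLNR9C over wild type with vehicle at 20 weeks, at a median of 0.06, where 23.3% of all genes rose and 21.4% fell, so neither share lay above that of all genes. Otud1 rose by 1.39 ± 0.13 (adjusted p = 2.9e-07), and Usp2, a clock-regulated enzyme, fell by 1.03 ± 0.14 (adjusted p = 6.0e-05). Psmd14, the deubiquitinase of the proteasome lid, had 0.20 ± 0.08 (adjusted p = 0.065). Of 30 proteasome subunits, 8 rose and none fell in cardiomyocytes, at a median of 0.22, where 14.3% of all genes rose. At 20 weeks 3 rose and 5 fell, lower shares than the 23.3% and 21.4% of all genes. Psmd8, a lid subunit of the proteasome, rose in every sample type. The rise was 0.37 ± 0.06 in the 8-week and 0.93 ± 0.09 in the 20-week ventricle, 1.03 ± 0.13 in cardiomyocytes and 0.44 ± 0.08 in non-myocytes. Ube2b, a conjugating enzyme of muscle, fell by 0.32 ± 0.07 at 8 weeks, 0.80 ± 0.07 at 20 weeks and 0.53 ± 0.13 in cardiomyocytes.

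The immunoproteasome list held 5 inducible subunits and activators. In PLNR9C non-myocytes all 5 fell with JQ1, at a median of -0.99, where 19.5% of all genes fell, and Psmb8 fell by 1.33 ± 0.13 (adjusted p = 1.0e-05). In PLNR9C cardiomyocytes 4 of 5 fell with JQ1, at a median of -1.43, where 4.33% of all genes fell. In wild type non-myocytes 3 of the 5 fell with JQ1, at a median of -0.83, where 20.0% of all genes fell, and in wild type cardiomyocytes 0 of the 5 passed by edgeR, at a median of -0.43. With vehicle, 3 of the 5 rose in PLNR9C over wild type cardiomyocytes, where 14.3% of all genes rose, among them Psmb10 (1.63 ± 0.27, adjusted p = 0.0012). Macrophage markers there summed to 133.8 to 176.8 CPM in PLNR9C with vehicle and to 28.63 to 40.19 CPM in wild type with vehicle, and their part was not tested.

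Of 24 autophagy genes, 13 rose and 1 fell with JQ1 in PLNR9C at 8 weeks and 12 rose and none fell at 20 weeks, where 15.5% and 15.9% of all genes rose. Sqstm1, the receptor p62 that carries ubiquitinated cargo to autophagy, rose in PLNR9C over wild type with vehicle by 0.61 ± 0.10 at 20 weeks (adjusted p = 0.00011), and its change with JQ1 there was -0.14 ± 0.10 (adjusted p = 0.32). Ulk1, the kinase that starts autophagy, rose with JQ1 by 0.44 ± 0.07 at 8 weeks (adjusted p = 5.3e-05) and by 0.47 ± 0.08 at 20 weeks (adjusted p = 0.00029). Of 19 sarcomere partners and substrates of the MuRF proteins, 11 fell and 3 rose in PLNR9C over wild type with vehicle at 20 weeks, where 21.4% of all genes fell and 23.3% rose. All 19 were higher in cardiomyocytes than in non-myocytes, and 9 of the 10 cardiomyocyte markers fell in the same ventricles, at a median of -1.17, whose part was not tested. Fhl2, a partner of the MuRF proteins, fell by 2.20 ± 0.11 (adjusted p = 2.9e-10), and the myosin light chain Myl2 fell by 1.12 ± 0.09 (adjusted p = 3.3e-08). With JQ1 in PLNR9C, 7 of the 19 rose at each age, where the shares of all genes were the 15.5% and 15.9% above, with Myl2 up by 0.72 ± 0.09 at 20 weeks (adjusted p = 2.2e-05).

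Among 10895 genes, those whose 16 group means were most like a member's were found by Pearson's r of log2 CPM centred within each sample type. For Uchl1 they were Gyg, which encodes glycogenin (r = 0.984), the transcript AK202516 (0.976) and Asl, which encodes argininosuccinate lyase (0.976). For Trim63 they were Alas2 (0.982), Tnnt2 (0.975) and Slc25a4 (0.950). Trim55 and Trim54 were among the 3 genes most like each other (0.959), and both had Lmod3, a nucleator of sarcomeric actin, on their list (0.962 and 0.976). Fbxo30 was most like Slc38a2 (0.887), Nckap1 (0.883) and Smurf1 (0.880), and Fbxo32 had no gene above 0.856, for Atcay. Trim63 and Fbxo32, known together as wasting ligases, had an r of 0.336 with each other. These coefficients describe 16 means from the same libraries and carry no test.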

How the data were processed

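RNA from 48 mouse heart libraries, 16 groups of 3, was sequenced. The authors deposited read counts per gene beside RPKM values, per the file headers. RPKM matched reads divided by gene length and library total within 0.062% in genes with at least 50 reads. Per the submitters' processing notes, STAR 2.4.1b and the builds GRCm38 and mm10 were used, with counter, annotation and strand setting not given in the sources used here. No column of another sample was present, so 0 per-sample columns were set aside.

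Each sample type was fitted on its own with edgeR 4.0.16 (R 4.3.3, limma 3.58.1): TMM scaling, filterByExpr, robust quasi-likelihood F-tests on 4 group means and Benjamini-Hochberg adjustment over all 15501, 15971, 14142 and 15347 genes tested, with a threshold of 0.05. Differences between ages and between fractions came from joint fits of 16220 and 15823 genes. Standard errors are the log2 fold change divided by the root of F, and intervals are 2 standard errors each side. DESeq2 1.42.0 was an alternative. The procedure was tested on simulated data. CPM was scaled within each sample type, and RPKM was used only to compare genes. Tables and figures used Python 3.11.15, pandas 2.3.3, numpy 2.4.6 and matplotlib 3.10.9.

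The design text calls ventricle libraries biological replicates, and the sample titles call all libraries so, pools included. The number of animals in a pool was not found, so for the pools p-values measure the spread between these samples. Across the fractions, same-numbered libraries of a condition deviated together in all 12 pairs (correlation 0.181 to 0.375), so their numbers pair them. The reported fits over both fractions did not use this pairing. The members and lists were chosen with earlier results of these data known. The text names the 6 members, up to 4 genes per list with the smallest p among those that passed, 8 regulators of which some values are not reported here, and the 3 genes most alike to each member with at least 10 CPM in a group (log2 CPM with a prior count of 2).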

Additional observations from a re-analysis of the deposited data

Results flagged for a closer look

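The JQ1 effects on Uchl1, PLNR9C minus wild type, differed by -1.17 ± 0.24 in the 20-week ventricle. Uchl1 stood lower with JQ1 on average in PLNR9C (18.2 to 24.04 CPM with JQ1, 20.6 to 28.4 CPM with vehicle) and higher with JQ1 in wild type (4.71 to 5.27 CPM with JQ1, 2.09 to 3.498 CPM with vehicle). In cardiomyocytes the same difference was -1.17 ± 0.35, and -0.81 without PLNR9C vehicle replicate 3. In both, every PLNR9C JQ1 library lay below the PLNR9C vehicle mean and every wild type JQ1 library above the wild type vehicle mean. In cardiomyocytes that PLNR9C vehicle mean, 31.9 CPM, was raised by replicate 3 at 46.4 CPM. Without that library the JQ1 effect in PLNR9C cardiomyocytes was 0.02, so the lower level with JQ1 there rests on it. The differences were not tested because Uchl1 was treated as chosen on the vehicle libraries.

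The JQ1 effect on Uchl1 in PLNR9C ventricle at 20 weeks minus that at 8 weeks was -0.51 ± 0.21, since every PLNR9C JQ1 library lay above the PLNR9C vehicle mean at 8 weeks and below it at 20 weeks. It was not tested, for the same reason.

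The genotype effect on Trim55 with vehicle at 20 weeks minus that at 8 weeks was -0.41 ± 0.10 by edgeR's quasi-likelihood test with Benjamini-Hochberg adjustment (adjusted p = 0.0043). The 3 PLNR9C vehicle libraries lay below the 3 wild type vehicle libraries at each age, with a log2 fold change of -0.10 at 8 weeks and -0.52 at 20 weeks.

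The same difference between ages was 0.51 ± 0.16 for Fbxo30 (adjusted p = 0.027), and without single libraries its adjusted p ran from 0.016 to 0.079.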

How the results depend on the processing

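Scaling with DESeq2's size factors, DESeq2's Wald test, the absence of a filter on low counts, the replicate number as a block and the removal of each library in turn were tried for every comparison. Counts of passing genes over the whole table stayed within 1.5 times of the reported count, except as follows. With DESeq2, the JQ1 effect in wild type cardiomyocytes passed for 847 genes and the JQ1 effect in PLNR9C at 20 minus 8 weeks for 155. The difference of the JQ1 effects between genotypes passed with DESeq2 for 11 genes in the 8-week and 213 in the 20-week ventricle, for 4 in cardiomyocytes and for 63 in non-myocytes, and without a filter for 8 genes at 8 weeks, 127 at 20 weeks and 2 in non-myocytes. By edgeR it passed for 1, 57, 0 and 0 genes in these sample types, with 871, 1641, 954 and 1391 genes at an unadjusted p under 0.05.

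Leaving out libraries in turn gave the following counts. The genotype effect with vehicle at 8 weeks passed for 1267 to 2088 genes, the lowest without wild type vehicle replicate 1, and in non-myocytes for 1864 to 2565, the lowest without PLNR9C vehicle replicate 1. The genotype effect with JQ1 passed for 455 to 790 genes at 8 weeks, in cardiomyocytes for 2391 to 4887 and in non-myocytes for 1858 to 2490, each time fewest without PLNR9C JQ1 replicate 2. The JQ1 effect in PLNR9C cardiomyocytes passed for 643 genes without PLNR9C JQ1 replicate 2 and 2513 without replicate 1. In wild type cardiomyocytes it passed for 109 genes without JQ1 replicate 3, and for at most 276. The difference of the JQ1 effects between genotypes gave 0 to 22 genes at 8 weeks, 8 to 87 at 20 weeks and 0 to 225 in non-myocytes, the last without PLNR9C JQ1 replicate 1. The JQ1 effect in PLNR9C at 20 minus 8 weeks gave 11 to 58.

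Log2 fold changes of 41 results changed sign without 1 library, and none of them passed as reported. For PLNR9C over wild type with vehicle, the ranges at 8 weeks covered Fbxo30 from -7.9e-05 to 0.032, Fbxo32 from -0.020 to 0.093 and Trim54 from -0.13 to 0.011. At 20 weeks they covered Fbxo32 from -0.15 to 0.13. In non-myocytes they covered Fbxo30 from -0.0095 to 0.18, Fbxo32 from -0.36 to 0.040, Trim54 from -0.20 to 0.13 and Trim55 from -0.22 to 0.44. For PLNR9C over wild type with JQ1, those at 8 weeks covered Fbxo30 from -0.082 to 0.13, Fbxo32 from -0.19 to 0.093 and Trim54 from -0.073 to 0.14. At 20 weeks they covered Fbxo30 from -0.071 to 0.15 and Fbxo32 from -0.18 to 0.12. In cardiomyocytes they covered Trim54 from -0.35 to 0.063. In non-myocytes they covered Uchl1 from -0.066 to 0.19. For JQ1 in PLNR9C, the 8-week range covered Fbxo30 from -0.11 to 0.10. At 20 weeks they covered Fbxo32 from -0.082 to 0.20 and Trim55 from -0.011 to 0.049. In cardiomyocytes they covered Uchl1 from -0.54 to 0.018. In non-myocytes they covered Fbxo30 from -0.073 to 0.15, Trim54 from -1.21 to 0.079 and Trim63 from -0.047 to 1.02. For JQ1 in wild type, the 8-week range covered Fbxo30 from -0.040 to 0.033. At 20 weeks they covered Fbxo30 from -0.067 to 0.15 and Fbxo32 from -0.069 to 0.23. In cardiomyocytes they covered Fbxo30 from -0.23 to 0.027 and Fbxo32 from -0.35 to 0.12. In non-myocytes they covered Fbxo32 from -0.34 to 0.13. For the difference of the JQ1 effects between genotypes, the 8-week ranges covered Fbxo30 from -0.099 to 0.11, Fbxo32 from -0.21 to 0.072, Trim54 from -0.016 to 0.20 and Trim63 from -0.024 to 0.15. At 20 weeks they covered Fbxo32 from -0.20 to 0.11 and Trim54 from -0.052 to 0.18. In cardiomyocytes they covered Fbxo30 from -0.39 to 0.0063, Fbxo32 from -0.72 to 0.031 and Trim63 from -0.13 to 0.38. For the genotype effect at 20 weeks minus that at 8 weeks, that of Fbxo32 ran from -0.16 to 0.12. For the genotype effect in cardiomyocytes minus that in non-myocytes, they covered Fbxo30 from -0.047 to 0.36, Trim55 from -0.61 to 0.054 and Trim63 from -0.39 to 0.39.

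The replicate number as a block gave 92 genes for the 20-week difference of the JQ1 effects between genotypes and turned the non-myocyte Uchl1 genotype effect with JQ1 to -0.00034. Same-numbered libraries of a sample type shared only a number, since their deviations correlated between -0.20 and 0.30 over 48 pairs, and every pair was above 0.1 in 1 of 16 contrasts. Under that block, 4 member calls were lost (Fbxo32 and Trim63 with JQ1 in the wild type ventricle, and Trim54 in non-myocytes by genotype with JQ1 and by JQ1 in wild type). Another 4 were gained, which were Trim54 at 20 weeks by genotype, Trim63 in cardiomyocytes by genotype and by JQ1 in PLNR9C, and Fbxo30 in wild type non-myocytes by JQ1. The block that paired the fractions, chosen after seeing the data, changed no call of the 5 ligases. The Fbxo32 difference between ages was 0.0049 with DESeq2's size factors and 0.0048 with its Wald test. Unscaled library sizes, chosen after seeing the data, gave 0.0010 for the Trim55 genotype effect in cardiomyocytes minus non-myocytes. The cause of these shifts was not tested. Groups of 3 libraries and pools of unknown size limit what could pass, and Trim55 in non-myocytes rested on at most 3.73 CPM.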
